A study of Mus musculus with 16 samples.

Results

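The differentiation of mouse embryonic stem cells (mESCs) to embryoid bodies (EBs) while β-catenin was silenced was followed in 4 of the 16 libraries of the series, the 2 libraries titled EB shβcat #1 and the 2 titled mESC shβcat #1. DNA methylation had been measured by reduced representation bisulfite sequencing (RRBS), which cuts genomic DNA with a restriction enzyme to enrich CpG-rich fragments and reads, after bisulfite treatment, how many reads carry a methylated cytosine. All cells were E14, an established mESC line of the 129/Ola strain; per the study's methods these were young passage cells, transduced with a pLKO-based short hairpin RNA (shRNA) construct against β-catenin (shβcat #1) or with a control construct (shCtrl). mESCs were kept in serum with LIF (leukemia inhibitory factor, the cytokine that sustains self-renewal), and EBs were made in the same medium without LIF, as hanging drops, then in suspension and later on gelatin-coated dishes, and were collected at day 8 of differentiation. The control differentiation, EB shCtrl against mESC shCtrl with 2 libraries each, was used to ask which changes differed when β-catenin was silenced. The labels do not say whether the 2 replicates of a group came from separate cultures, so that the p-values below measure the spread between these libraries. Only 1 of the hairpins against β-catenin was sequenced, and an effect of that construct cannot be told apart from an effect of the silencing.

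β-catenin, encoded by Ctnnb1, is the transcriptional effector of the canonical Wnt pathway: Wnt ligands bind Frizzled and Lrp receptors, the destruction complex built on Axin and Apc is inhibited, and β-catenin enters the nucleus to act with Tcf/Lef factors. Cultured mESCs are pluripotent, and when LIF is withdrawn they form EBs that hold cells of several germ layers. During this transition the de novo enzymes Dnmt3a and Dnmt3b methylate CpGs, while imprinting control regions (ICRs) carry methylation on 1 parental allele from the germline onward. RRBS holds no measure of expression, so neither the knockdown of Ctnnb1 nor the cell types of the EBs could be checked in these data, and the Ctnnb1 promoter held fewer than 3 CpGs common to the 4 libraries. The study itself measured lower β-catenin transcript and protein with its hairpins, and chose shβcat #1 for its silencing efficiency. It also reported that EBs of silenced cells came apart from day 3 on and did not differentiate properly. A methylation percentage from a mixed population cannot separate more methylated cells from more methylated alleles.

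After the reads of both strands were summed, 863436 CpGs had 10 or more reads in all 4 libraries. Each of these libraries covered from 919842 to 1152954 CpGs and held from 35916511 to 40478303 reads on them, with a median of 26 to 35 reads per CpG. Mitochondrial cytosines, which served here as a measure of incomplete conversion, were called methylated in 0.274% to 0.373% of their reads. The replicates correlated across CpGs with r = 0.976 in EBs and r = 0.985 in mESCs (863436 CpGs, which are not independent).

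Methylation rose on differentiation. The mean over CpGs was 34.48% and 34.95% in the 2 EB shβcat #1 libraries and 32.0% and 31.8% in the 2 mESC shβcat #1 libraries. Both EB libraries stood above both mESC libraries, with group means of 34.7% ± 0.335 and 31.9% ± 0.117 (SD, n = 2 each) and a rise of 2.81 percentage points. The exact permutation test gave p = 0.333 (two-sided), the smallest value that 2 libraries against 2 can give. The rise was carried by a minority of sites. Of all CpGs, 524413 (60.7%) changed by less than 5 points, whereas 57756 (6.69%) rose and 4152 (0.481%) fell by more than 25 points.

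Single CpGs were tested with a binomial model whose overdispersion was shared by all sites, and were called when the Benjamini-Hochberg adjusted p was below 0.05 and the change above 25 points. By this rule 52935 CpGs gained methylation (6.13% of those tested) and 2823 lost it (0.327%). The gained CpGs went from a mean of 23.9% in mESCs to 65.2% in EBs, with a median rise of 38.4 points. The lost CpGs went from 91.9% to 61.1%, with a median of -28.4 points. The gains thus came from sites of low and intermediate methylation, and the losses from sites that were almost fully methylated. The count of lost CpGs rested on the EB libraries more than that of gained CpGs: without replicate 2 of EB shβcat #1 it was 6800, where the gained CpGs were 50831.

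The change differed with the number of other CpGs within 100 bp on either side of a CpG, though these classes also differed in their level in mESCs. Isolated CpGs, with 0 to 2 neighbours, were at 79.2% and 79.7% in the EB libraries and at 81.6% and 81.4% in the mESC libraries, so that they fell by 1.99 points (64874 CpGs). CpGs with 3 to 5 neighbours rose by 1.49 points, those with 6 to 10 by 5.35 points and those with 11 to 20 by 4.93 points. The dense CpGs with over 20 neighbours, the kind that forms CpG islands, stood at 4.19% and 4.54% against 2.94% and 2.83% and rose by 1.48 points. In every one of these 5 classes the 2 EB libraries lay on 1 side of the 2 mESC libraries. CpGs with 6 to 10 neighbours had the highest share of gained sites, 11.9% (17372 of 146337), and dense CpGs had 0.998%. The lost sites lay in sparser sequence, since 35.2% of them had 0 to 2 neighbours and 36.6% had 3 to 5, where these 2 classes made up 7.51% and 15.8% of the CpGs compared. The median number of neighbours was 7 for gained CpGs, 3 for lost CpGs and 14 for all CpGs.

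By gene annotation, the exons outside promoter windows changed most, from 40.8% and 40.6% in mESCs to 46.8% and 47.3% in EBs (6.38 points, 140934 CpGs). Introns rose by 3.36 points, promoter windows by 2.16 points and intergenic CpGs by 0.489 points. Promoter windows held 43.3% of the CpGs compared and 15.6% of the gained ones. Intergenic CpGs held 18.2% of the CpGs compared and 53.1% of the lost ones.

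When CpGs were classed by their level in the mESC shCtrl libraries, which the shβcat #1 contrast did not use, the largest rises were found at intermediate levels. CpGs at 5 to 20% rose by 19.4 points, to 31.7% and 32.98% in the EB libraries, and those at 20 to 40% rose by 19.7 points, to 50.2% and 52.5%. CpGs under 5%, 49.5% of all CpGs compared, rose by 2.41 points. CpGs at 80 to 100% fell instead, from 92.8% and 92.7% in the mESC libraries to 86.0% and 86.5% in the EB libraries, a change of -6.48 points over 188294 CpGs, and 66.4% of the lost CpGs were in this class. At like levels, CpGs with 0 to 5 neighbours rose more than those with 11 or more at 5 to 20% (36.1 against 13.3 points). The same held at 20 to 40% (31.7 against 11.2 points). At 60 to 80% they rose less (1.19 against 8.34 points). At 80 to 100% both kinds fell, by 7.35 and 3.56 points, so that a fall was not tied to isolation alone. No test was run over these classes, because classing by mESC shCtrl libraries would bias a comparison with the shCtrl contrast.

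**Figure D1:**
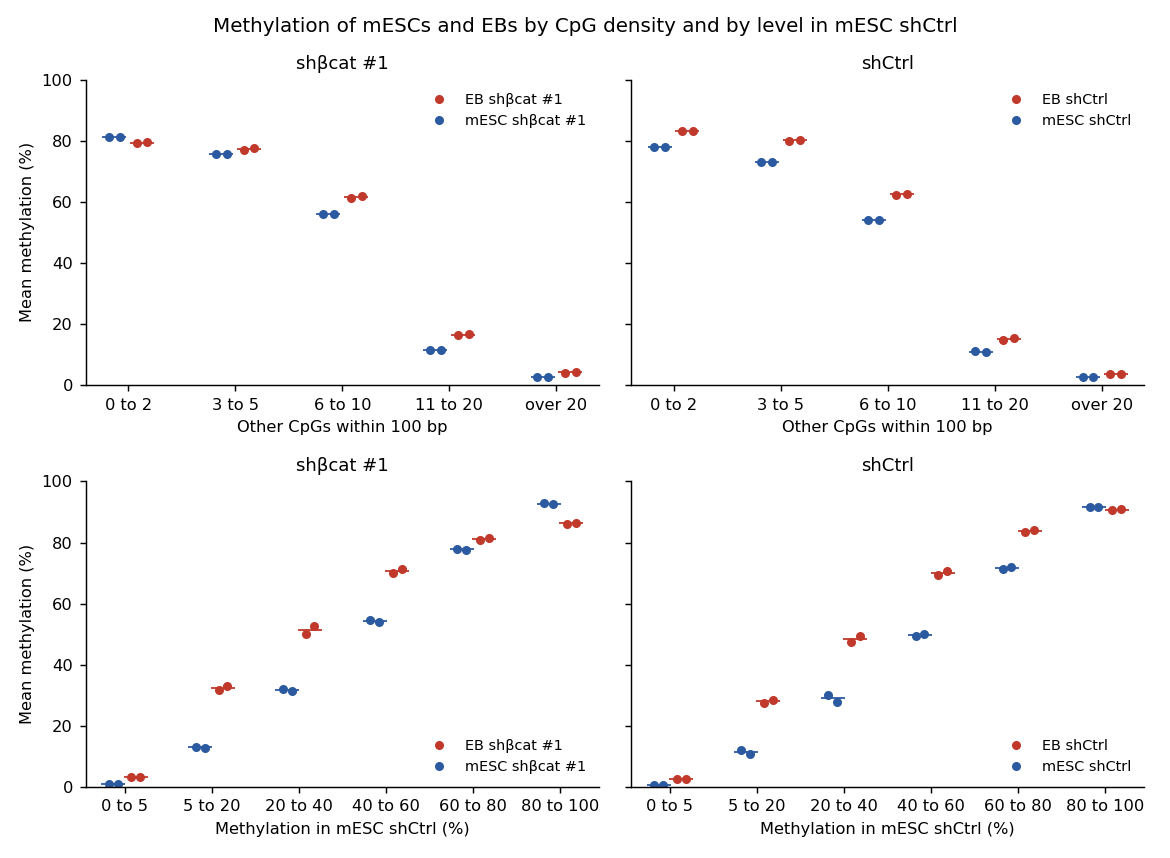
Mean CpG methylation (percent, y axis) by number of other CpGs within 100 bp (top panels) and by level in mESC shCtrl (bottom panels), for shβcat #1 (left) and shCtrl (right). Points are single libraries and bars are the means of 2 libraries. In shβcat #1 the EB points lie below the mESC points for CpGs with 0 to 2 neighbours and for CpGs at 80 to 100%, and above them in the other classes.

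The mean rise was compared with the control differentiation over the 785815 CpGs with 10 or more reads in all 8 libraries. It was 2.92 points in shβcat #1 and 4.40 points in shCtrl, a difference of -1.48 points. Exchanging the shRNA labels within each stage gave an exact permutation p = 0.111 (two-sided, smallest possible 0.0556), so that this difference was not separated from the spread of the libraries. Isolated CpGs with 0 to 2 neighbours moved in opposite directions: they went from 81.3% and 81.1% to 79.1% and 79.7% in shβcat #1 and from 78.0% and 78.0% to 83.1% and 83.3% in shCtrl. The 2 contrasts differed by -6.99 points in this class, with the smallest possible exact permutation p of 0.0556 (0.111 after Benjamini-Hochberg adjustment over the 30 classes of CpGs compared in this way). The libraries thus differed at both stages, with mESC shβcat #1 above mESC shCtrl and EB shβcat #1 below EB shCtrl. Classes with 3 to 5 neighbours (-5.53 points) and with 6 to 10 neighbours (-2.87 points) had the same p, as did introns (-2.58 points) and intergenic CpGs (-4.98 points). The 2 dense classes differed by 0.873 and 0.549 points in the other direction, with exact permutation p values of 0.389 and 0.278.

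Chromosomes shared the direction of the genome mean, except chromosome Y, whose few CpGs were highly methylated. The mean rose on 20 of 21 chromosomes and fell on chromosome Y, where 183 CpGs were compared: they were at 78.3% and 79.0% in EBs and 86.5% and 85.9% in mESCs, a change of -7.55 points. The other chromosomes were at 28.3% (chromosome 19) to 36.1% (chromosome X) in the mESC libraries. Over all chromosomes, CpGs at 80 to 100% in mESC shCtrl changed by -6.48 points, so that such a fall was not particular to chromosome Y. Over the 151 chromosome Y CpGs common to the 8 libraries the change was -8.34 points in shβcat #1 and 0.792 points in shCtrl, which gave a difference of -9.13 points with the smallest possible exact permutation p of 0.0556 (adjusted 0.111). The change was smaller in shβcat #1 than in shCtrl on all 21 chromosomes.

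Moderate losses were more numerous in shβcat #1. Over the 8-library CpGs, 65284 (8.31%) fell by 10 to 25 points in shβcat #1 and 16336 (2.08%) in shCtrl, while rises of over 50 points were found at 11410 and 10946 CpGs. Falls of over 50 points were rare in both, at 34 and 91 CpGs. By the call rule, 50339 CpGs were gained and 2368 lost in shβcat #1, against 48107 and 512 in shCtrl. The gained CpGs common to both were 33963, which is 67.5% of those of shβcat #1 and 70.6% of those of shCtrl. The lost CpGs common to both were 73, or 3.08% and 14.3%. Those counts follow thresholds applied to each contrast and are no test of the difference.

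**Figure D2:**
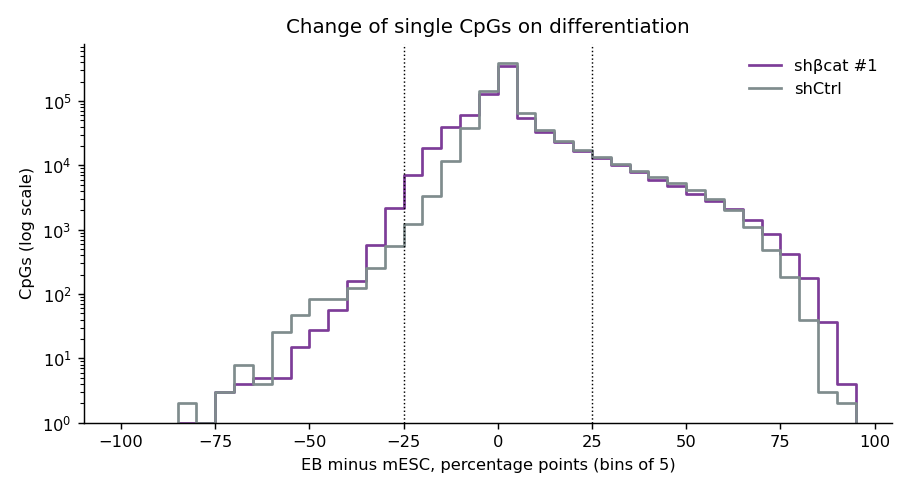
Number of CpGs (log y axis) in 5-point bins of the change in methylation, EB minus mESC in percentage points (x axis), over the 785815 CpGs with 10 or more reads in all 8 libraries, for shβcat #1 and shCtrl. Dotted lines mark 25 points. Falls of 10 to 25 points were counted at 65284 CpGs in shβcat #1 and 16336 in shCtrl, and the rising sides of both curves lie close to each other.

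The test of the difference itself, a Wald test on the difference of the 2 changes, called few single CpGs. In 267 (0.034% of those tested) the change was higher in shβcat #1, and in 318 (0.0405%) it was lower. The CpGs with the higher change were at 6.28% in mESC and 40.2% in EB shβcat #1, and at 29.8% and 15.1% in shCtrl. The CpGs with the lower change were at 64.0% and 45.1% in shβcat #1 and at 35.6% and 66.1% in shCtrl. Of these 318, 106 (33.3%) fell by more than 25 points in shβcat #1, and 117 (36.8%) rose by more than 25 points in shCtrl and by less in shβcat #1. These counts moved with the libraries used: the higher ones reached 530 without replicate 1 of mESC shβcat #1, 978 without replicate 2 of EB shCtrl and 449 without replicate 1 of mESC shCtrl. The lower ones were 183 without replicate 1 of EB shβcat #1, 751 without its replicate 2, 760 without replicate 2 of EB shCtrl and 741 without replicate 1 of mESC shCtrl.

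Changed CpGs that lay close together were grouped into regions. A region was defined, following the study's methods and with no test, as at least 10 CpGs changed in the same direction by more than 25 points between the replicate means, each less than 2 kb from the next. By this rule 971 regions gained methylation and 1 lost it. The gained regions held from 10 to 97 changed CpGs (median 13), had a median length of 756 bp and went from a median of 19.1% in mESCs to 57.5% in EBs. They took in 14578 (27.5%) of the gained CpGs. RRBS measures CpGs in CpG-rich fragments, and whether gained CpGs lay closer together than the CpGs compared was not tested. Coding exons were overlapped by 687 regions, introns by 573, untranslated exons by 402, and 139 were intergenic, where a region may count in several of these. Within 1 kb of the start of a protein-coding gene lay 246 (25.3%), and 0 overlapped an ICR. These counts were not set against all covered sequence, where promoter windows held 43.3% of the CpGs compared. Requiring the change between every EB and every mESC library left 466 gained regions.

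The largest gained region lay on chromosome 7 in Zfp865, a zinc finger gene, at chr7:4981500-4983758 (mm9), over coding and untranslated exon sequence. Its 97 changed CpGs were among 111 compared, with 3757 to 4562 reads per library. The mean was 44.7% and 44.7% in the EB libraries and 7.03% and 6.42% in the mESC libraries, a rise of 37.9 points. A stretch of 200 bases within it is shown because 20 of its 21 CpGs could be followed in all 4 libraries. It lies at chr7:4983055-4983254 (mm9, + strand), and the capitals mark the CpGs with 10 or more reads in each of the 4 libraries.
Zfp865 region: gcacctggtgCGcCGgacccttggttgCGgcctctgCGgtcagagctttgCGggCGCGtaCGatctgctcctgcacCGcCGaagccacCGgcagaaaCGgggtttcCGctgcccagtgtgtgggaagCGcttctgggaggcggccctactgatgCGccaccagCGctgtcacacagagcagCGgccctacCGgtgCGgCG
The means over these CpGs were 41.7% and 34.4% in EBs and 3.91% and 3.05% in mESCs, and single CpGs of this stretch ranged from 19.1% to 57.1% in EBs and from 0 to 12.2% in mESCs. The gain was therefore partial at every marked CpG, and by group means no CpG of the stretch was as high in mESCs as the lowest was in EBs.

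The other 9 of the 10 regions with the most changed CpGs lay in or over the genes below. Shroom3, an actin-binding protein of neural tube closure, held 73 changed CpGs in coding exon sequence at chr5:93370634-93372021 and went from 16.8% and 16.3% to 50.9% and 47.3%. Nhlh2, a neuronal bHLH transcription factor, held 54 at chr3:101815501-101817016 and went from 9.42% and 10.5% to 37.0% and 38.8%. Bcl11b, a zinc finger factor of T cell and neuronal development, held 51 in coding exon sequence at chr12:109153851-109155504 and went from 14.2% and 14.3% to 49.3% and 50.5%. In each of these 3 regions the replicates lay within 4 points of each other, while the distance between the groups follows from the rule that chose the regions. Grin3b, a subunit of the NMDA glutamate receptor, held 57 changed CpGs and rose by 34.0 points. The region over Isyna1, the enzyme that makes inositol phosphate, and Ssbp4 held 63 and rose by 20.8 points, and the one over Gas2l1 and Rasl10a held 48 and rose by 19.04 points. Zbtb7a, a transcriptional repressor, held 45 changed CpGs at chr10:80606198-80612867 and showed the largest rise of the 10, from 26.0% and 26.1% to 85.5% and 83.6%. Gm11620 (48 CpGs, 43.9 points) and the microRNA gene Mir219-2 (47 CpGs, 33.2 points) completed the 10 with the most changed CpGs.

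The gains in regions were shared with the control differentiation. Of the 971 gained regions, 970 were covered in the shCtrl libraries too, all 970 also rose there, and 609 did so by more than 25 points. The median change was 33.2 points in shβcat #1, which chose the regions, and 30.8 points in shCtrl. Zfp865 rose by 45.5 points in shCtrl, Shroom3 by 39.2, Zbtb7a by 50.9 and Gm11620 by 38.2, so that some were higher in shCtrl and some lower. Nhlh2 differed most among the 10, with 37.0% and 38.8% in EB shβcat #1 against 26.9% and 27.5% in EB shCtrl and a rise of 15.6 points in shCtrl. Applied to the CpGs common to the 8 libraries, the rule found 886 gained regions in shβcat #1 and 745 in shCtrl, of which 595 overlapped (67.2% and 79.9%).

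The single lost region lay at the start of BC066135, a gene without an assigned function here, on chromosome 2 at chr2:180024368-180024697 (mm9), over untranslated exon and intron. Of its 12 CpGs compared, 11 fell by more than 25 points. The EB libraries were at 55.5% and 55.1% and the mESC libraries at 90.8% and 87.7%, with 568 to 697 reads per library. In shCtrl it went from 84.6% and 85.0% to 63.6% and 70.4%, a change of -17.8 points, so that the loss was seen in both differentiations. A stretch of 113 bases just upstream of the annotated start of the gene, which is on the - strand, is shown as an example of sequence that lost methylation, at chr2:180024585-180024697 (mm9, + strand), with the 5 measured CpGs in capitals.
BC066135 region: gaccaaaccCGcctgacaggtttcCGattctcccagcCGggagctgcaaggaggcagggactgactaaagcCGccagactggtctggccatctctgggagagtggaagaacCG
These 5 CpGs averaged 48.7% and 49.8% in EBs and 88.8% and 86.6% in mESCs. The region was absent at a threshold of 30 points in place of 25 and when every EB library had to differ from every mESC library.

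Promoters were taken as 1000 bases before to 500 bases after the start of a gene, with at least 3 CpGs common to the 4 libraries. Of 12540 promoters tested with a quasi-binomial F test (overdispersion moderated with limma, Benjamini-Hochberg adjusted p below 0.05 and a change over 10 points), 1274 gained methylation (10.2%) and 86 lost it (0.686%). Most promoters stayed low, since 10268 were under 10% in both mESC libraries and the median change of all promoters was 0.586 points. The gained promoters went from a median of 12.8% to 34.5%, a median rise of 18.6 points, and 501 of them started under 10%. They held a median of 11 common CpGs, against 25 for all promoters. Of the 86 lost promoters 85 were above 80% in mESCs, and their median went from 94.3% to 80.8%. The gained count varied little with the libraries used, whereas the lost count fell to 26 without replicate 1 and to 24 without replicate 2 of mESC shβcat #1.

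The largest gains came from promoters at 4.86% to 16.6% in mESCs, and several are given with their adjusted p from the quasi-binomial test with limma moderation. The first of them rest on few common CpGs: 4 at Tnfsf13, 3 in the window of Tex14 and Rad51c and 4 at Tcl1. Tnfsf13, the cytokine APRIL, rose from 4.98% and 4.73% to 86.1% and 74.6% (75.5 points, adjusted p = 6.13e-07). The window shared by Tex14, which is needed for the intercellular bridges of germ cells, and Rad51c, a recombination gene, rose from 16.9% and 16.4% to 92.8% and 78.9% (69.3 points, adjusted p = 8.95e-07). Tcl1, a coactivator of Akt that is active in mESCs, rose from 12.1% and 3.21% to 83.1% and 70.4% (69.1 points, adjusted p = 1.43e-06). Several of these genes are known from the germline or from mESCs, and Hsf2bp, a meiotic recombination factor, was among them (57.0 points). Slc39a4, a zinc importer, rose by 58.6 points. The window shared by Zbtb38, a zinc finger protein that binds methylated DNA, and E030011O05Rik rose from 14.3% and 11.5% to 71.1% and 74.1%. The promoters named here, with Slc15a1, rose by 47.0 to 61.03 points in shCtrl.

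Slc15a1, an oligopeptide transporter, had the most CpGs of these (17 common CpGs). Its promoter, chr14:121903975-121905475 (mm9), was at 60.8% and 68.1% in EBs and at 7.54% and 7.13% in mESCs, a rise of 57.1 points (adjusted p = 5.04e-09, limma-moderated test). A stretch of 137 bases of its window is shown to set a strong promoter gain beside its sequence, at chr14:121904308-121904444 (mm9, + strand) and partly exonic. The 10 measured CpGs of 11 are in capitals.
Slc15a1 promoter: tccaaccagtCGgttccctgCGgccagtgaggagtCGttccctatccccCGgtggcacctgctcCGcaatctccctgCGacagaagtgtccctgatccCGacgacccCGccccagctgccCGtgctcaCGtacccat
Single CpGs of this stretch ranged from 48.7% to 84.4% in EBs and from 2.86% to 23.0% in mESCs, so that the gain took in all measured CpGs.

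The largest loss at a promoter was at BC066135, described above. Celf2, an RNA-binding regulator of splicing, was at 52.8% and 52.1% in EBs and at 82.5% and 78.2% in mESCs, a change of -27.9 points (adjusted p = 2.32e-04, limma-moderated test), and changed by -20.05 points in shCtrl. A stretch of 168 bases of its window, chr2:7002254-7002421 (mm9, + strand, partly exonic), is given with its 5 measured CpGs in capitals.
Celf2 promoter: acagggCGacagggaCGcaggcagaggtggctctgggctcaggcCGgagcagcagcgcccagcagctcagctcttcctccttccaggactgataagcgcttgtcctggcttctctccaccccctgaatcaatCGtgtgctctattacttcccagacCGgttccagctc
These CpGs averaged 51.5% and 53.4% in EBs and 84.1% and 78.1% in mESCs. Compared with the Slc15a1 stretch, measured CpGs were fewer and farther apart.

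Gata4, a transcription factor of endoderm and heart, was the only member of the germ layer lists among the 10 largest losses. Its promoter went from 94.4% and 93.9% to 75.0% and 78.6%, a change of -17.4 points (adjusted p = 1.74e-04, limma-moderated test), and by -11.6 points in shCtrl. The other losses were at Cubn, an endocytic receptor (-23.5 points), AA986860 (-21.6), the vomeronasal receptor Vmn2r69 (-20.3), the exonuclease Trex2 (-19.2), Gm5428 (-19.1), Csmd3 (-18.3) and the odorant receptor Olfr655 (-18.1). All of these were above 80% in mESCs and at 60.04% to 77.2% in EBs, on 3 to 5 CpGs. The loss at Olfr655, with an adjusted p of 0.0449 under limma moderation, was no longer called with the replicate numbers as a block (adjusted p = 0.0633). That at Trex2 was not called in the quasi-binomial test with an overdispersion shared by all promoters (adjusted p = 0.100).

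Changes at most promoters did not pass the test of a difference from shCtrl. Of 12265 promoters compared in all 8 libraries, 32 (0.261%) changed more in shβcat #1 and 8 (0.0652%) less, by the Wald test with limma-moderated overdispersion. The calls depended on single libraries. Leaving out 1 library gave 5 and 3 higher promoters without replicate 2 of EB shβcat #1 and replicate 1 of mESC shβcat #1, 8 without replicate 2 of mESC shβcat #1, 9 and 4 without replicates 1 and 2 of EB shCtrl, and 11 and 19 without replicates 1 and 2 of mESC shCtrl, though 33 without replicate 1 of EB shβcat #1. The 8 lower promoters came to 4 without replicate 1 of EB shβcat #1 and to 0 without any one of the other 7 libraries.

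Among the 10 promoters with the largest higher change, the smallest adjusted p was that of Ednra, the endothelin receptor A, with 22 CpGs at chr8:80247863-80249363 (mm9). It was at 33.3% and 33.2% in EB and 16.8% and 16.3% in mESC shβcat #1, and at 12.2% and 13.4% in EB and 16.03% and 14.5% in mESC shCtrl. The EB libraries lay above the mESC libraries in shβcat #1 and below them in shCtrl, and the difference of 19.2 points ± 2.68 (SE) had an adjusted p of 0.00250 (limma-moderated overdispersion), which became 0.0662 without replicate 1 of mESC shβcat #1. A stretch of 87 bases downstream of the gene's start, in intron, at chr8:80247867-80247953 (mm9, + strand; the gene is on the - strand), is shown with its 5 measured CpGs in capitals, as an example of a promoter whose change differed between the 2 differentiations.
Ednra promoter: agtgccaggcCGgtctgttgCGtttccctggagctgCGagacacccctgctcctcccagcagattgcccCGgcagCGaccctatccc
Here EB shβcat #1 stood at 33.6% and 43.4% and mESC shβcat #1 at 15.2% and 17.6%, while EB shCtrl was at 14.3% and 17.3% and mESC shCtrl at 21.2% and 19.05%.

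Homeobox genes were among the 10 promoters with the largest higher change. Nkx1-2, a homeobox gene of the caudal embryo, was at 24.3% and 21.4% in EB and 1.63% and 1.51% in mESC shβcat #1, against 6.08% and 4.16% in EB and 1.26% and 3.67% in mESC shCtrl, a difference of 18.6 points ± 2.77 (SE, adjusted p = 0.00431, limma-moderated). Vax1, a homeobox gene of ventral forebrain and eye, was at 30.9% and 36.3% in EB shβcat #1 and 16.9% and 13.7% in EB shCtrl, with all mESC libraries at 4.42% to 6.94%, a difference of 16.9 points. Trh, the thyrotropin-releasing hormone, was at 39.8% and 33.4% in EB shβcat #1 and 15.99% and 18.6% in EB shCtrl, a difference of 20.5 points. In these promoters the EB libraries of the 2 hairpins did not overlap and the mESC libraries were low in both. Nsg2, a protein of neuronal vesicles, differed by 23.4 points, Agbl2, a tubulin carboxypeptidase, by 21.3, Prrt3 by 20.1, Cwh43 by 18.1, Anxa3, a calcium-binding annexin, by 17.6 and Pnldc1, a piRNA-trimming exonuclease, by 16.2. All 10 promoters also rose in shβcat #1 by the test of that contrast alone.

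The 8 promoters with the lower change differed in where the libraries lay. AA986860 and Vmn2r69 fell in shβcat #1, AA986860 from 90.8% and 88.6% to 66.6% and 69.6%, and did not fall in shCtrl, with differences of -22.6 and -34.3 points. Vmn2r69 rested on 3 CpGs and rose by 13.9 points in shCtrl. Its mESC libraries were at 89.8% and 91.1% in shβcat #1 and at 81.2% and 69.4% in shCtrl. At AI428936 and Plce1, a phospholipase C, the EB libraries of both hairpins were above 80% and the mESC shCtrl libraries were lower than the mESC shβcat #1 libraries: AI428936 was at 70.3% and 68.3% in mESC shCtrl and 82.5% and 85.7% in mESC shβcat #1. There the mESC libraries of the 2 hairpins did not overlap, and the differences were -20.4 and -19.3 points. Lrrn3 and Igbp1b, whose mESC libraries were also apart, differed by -25.7 and -17.5 points. Gm14139 rose to 25.5% and 25.7% in EB shCtrl and to 9.27% and 7.34% in EB shβcat #1, a difference of -16.9 points. Sh3rf2, a ubiquitin ligase, differed by -14.0 points, with mESC libraries at 92.7% and 93.4% in shβcat #1 and 88.2% and 88.1% in shCtrl.

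**Figure D3:**
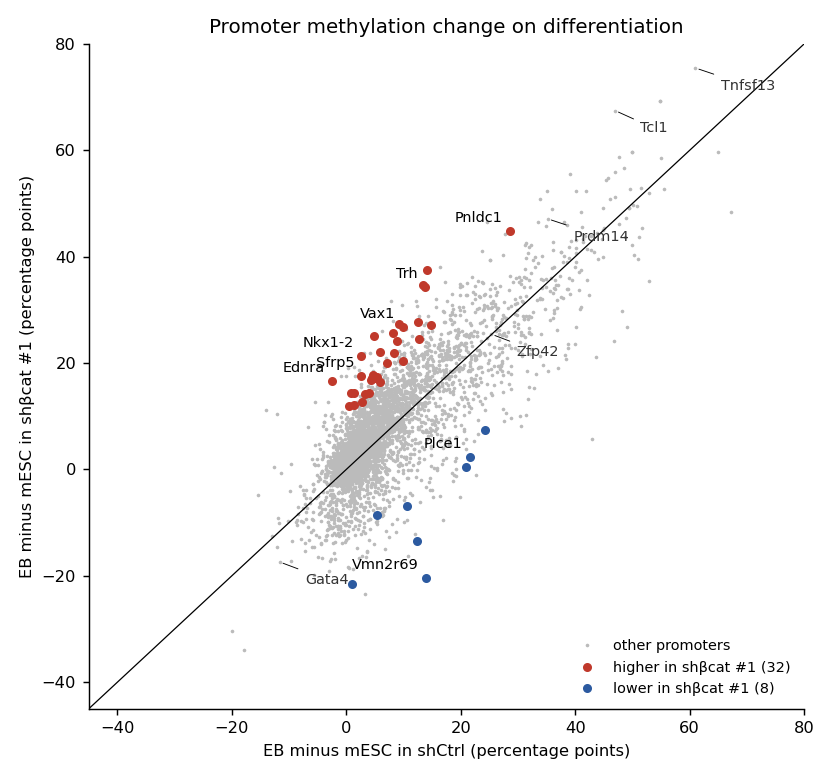
Change in promoter methylation, EB minus mESC in percentage points, in shCtrl (x axis) and shβcat #1 (y axis) for 12265 promoters. Each point is a promoter, and red and blue points are the 32 and 8 promoters whose change differed in the test between the contrasts, which lie above and below the diagonal.

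Lists of genes were read against the 10.2% of promoters gained and 0.686% lost over all promoters tested. Of the 26 pluripotency genes, 13 could be tested and 5 gained methylation, with a median change of 0.555 points over the 13. Prdm14, a regulator of naive pluripotency and of germ cells, was at 54.3% and 55.8% in EBs and at 10.2% and 5.76% in mESCs (47.1 points, adjusted p = 8.95e-07, limma-moderated test). Zfp42, or Rex1, a marker of undifferentiated cells, was at 29.8% and 23.2% in EBs and 0 and 2.10% in mESCs on 3 CpGs (25.4 points, adjusted p = 8.01e-05 in the same test). Pou5f1, which encodes Oct4, was at 14.3% and 7.41% in EBs and at 0 in both mESC libraries on 3 CpGs (10.9 points, adjusted p = 0.00295). In shCtrl these 3 promoters rose by 35.2, 25.4 and 21.4 points, and none passed the test of a difference between the contrasts. Dppa2, a gene of pluripotent and germ cells, rose by 23.6 points and Lefty1, a Nodal antagonist, by 23.7 points, each on 3 CpGs. The promoters of Sox2 (0.74% and 0.33% in EBs) and Klf4 (1.11% and 1.62%), both core factors of the naive state, stayed near 0. Nanog and Esrrb held fewer than 3 common CpGs.

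Prdm14 shows what a partial gain looked like. The 149 bases at chr1:13116847-13116995 (mm9, + strand; the gene is on the - strand), downstream of the gene's start and in intron, held all 7 of its measured CpGs, in capitals.
Prdm14 promoter: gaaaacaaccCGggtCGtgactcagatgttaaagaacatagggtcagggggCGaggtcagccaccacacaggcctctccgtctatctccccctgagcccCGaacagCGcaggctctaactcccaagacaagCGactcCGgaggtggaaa
Single CpGs ranged from 16.7% to 80.4% in EBs and from 0 to 21.7% in mESCs. The EB libraries also differed at single CpGs, by the most at the second of those shown, with 23.7% and 52.9%.

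Germline and meiosis genes, whose promoters are silenced by methylation in somatic cells, gained most often among the lists. Of 33 members 22 were tested, and 15 gained and 0 lost methylation, with a median change of 15.0 points (0.586 over all promoters). That background is unlike the list, since 10268 of the 12540 promoters tested but only 1 of these 22 were under 10% in both mESC libraries. Promoters of a like starting level were not compared. Hormad2, a protein of the meiotic chromosome axis, rose from 11.9% and 7.47% to 45.0% and 48.3%. Piwil2, of the piRNA pathway, rose from 34.5% and 44.5% to 76.3% and 74.1%. Mael, another piRNA factor, rose by 28.3 points, Sycp1, of the synaptonemal complex, by 27.0, the RNA helicase Ddx4 by 24.6 and Hormad1 by 20.6. This list had a median of 59.8% in mESCs and 79.9% in EBs, above the other lists at both stages, and its median change in shCtrl was also 15.0 points.

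The lists of germ layer genes were mixed. Of 17 mesoderm and heart promoters tested, 4 gained and 1, Gata4, lost methylation. Tbx6, a T-box factor of paraxial mesoderm, rose from 22.9% and 21.9% to 57.3% and 59.9% (36.2 points, adjusted p = 2.12e-05, limma-moderated test). Mesp2 and Mesp1, bHLH factors of early mesoderm, rose by 27.6 and 14.8 points (on 3 and 8 CpGs), and Hand1, a factor of heart and placenta, by 21.8 points. The promoter of T, or Brachyury, was at 8.17% and 9.46% in EBs and 4.11% and 2.59% in mESCs and was not called because its change was under 10 points. That of Nkx2-5, a cardiac homeobox gene, was at 53.1% and 63.6% against 45.5% and 49.0% and did not pass the limma-moderated test (adjusted p = 0.0745), though it did without replicate 1 of EB shβcat #1 (16.4 points). Of 10 endoderm promoters 1 gained, that of Pdx1 of the pancreas (19.99 points). Gata6, Sox17 and Foxa2 were not called, with changes of 2.97, 5.53 and 1.69 points. Of 19 ectoderm and neural promoters 4 gained, at Neurod1 (14.8 points), Pax6 (14.6), En1 (10.5) and Nefm (10.4), and Sox1 and Otx2 could not be tested. The call of En1 was lost with 20 reads per CpG, where it rose by 9.27 points. Those of Neurod1, En1 and Nefm were also lost when single libraries were left out.

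For the Wnt pathway, 63 of 71 promoters were tested, 7 gained (11.1%, near the 10.2% of all promoters) and 0 lost methylation. Among those called were the R-spondins Rspo4 (13.6 points) and Rspo3 (12.7), which enhance Wnt signalling, the Dickkopf proteins Dkk3 (18.6) and Dkk2 (14.7), and the Frizzled-related protein Sfrp5 (17.6). Cdx1, a homeobox target of the pathway, rose from 9.45% and 11.2% to 32.0% and 30.1% on 48 CpGs. Dkk2 was no longer called with the replicate numbers as a block (adjusted p = 0.0799). Axin2, the feedback target of β-catenin, was at 1.39% and 2.69% in EBs against 2.21% and 2.37% in mESCs on 49 CpGs. Sfrp5 was the 1 member with a difference from shCtrl: it was at 21.2% and 18.8% in EB and 2.20% and 2.58% in mESC shβcat #1, against 2.97% and 7.19% in EB and 2.55% and 2.31% in mESC shCtrl (14.9 points ± 2.68 SE, adjusted p = 0.0121 with limma-moderated overdispersion). Without replicate 2 of EB shβcat #1 this adjusted p was 0.139, without replicates 1 and 2 of mESC shβcat #1 it was 0.117 and 0.0620, and without replicate 1 of EB shCtrl 0.122.

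Of 39 genes of the Hox clusters, 30 were tested and 6 gained, led by Hoxd12, which went from 41.1% and 39.6% to 65.5% and 65.5%. Hoxb1 (17.4 points), Hoxb13 (14.3), Hoxc11 (13.02), Hoxc9 (10.7) and Hoxa9 (10.1) were the others, and Hoxb1 was not called with the replicate block (adjusted p = 0.0568). Hoxa9 was not called in a window of 500 bases either side (9.86 points) or with 20 reads per CpG (8.92 points). Among 10 tested genes of the methylation machinery, only Uhrf1, the partner of Dnmt1, gained (16.2% and 14.9% in mESCs, 29.9% and 29.4% in EBs). Dnmt1 and Dnmt3b changed by 0.30 and -0.07 points. Of the 25 clustered protocadherins only 3 could be tested, and Pcdhb1 gained, by 21.1 points.

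**Figure D4:**
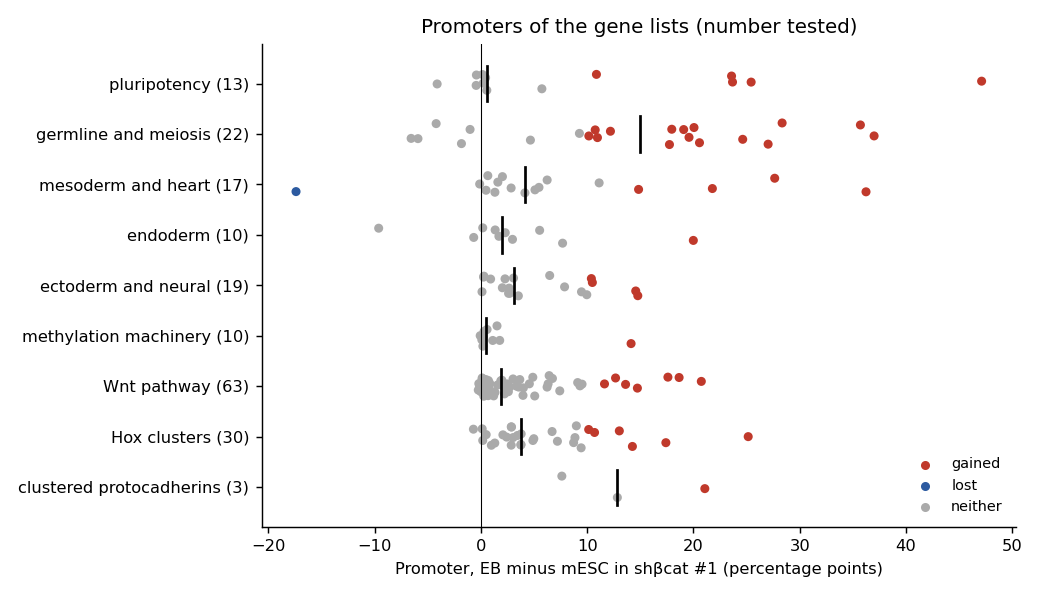
Change in promoter methylation, EB minus mESC in shβcat #1 (percentage points), for the tested genes of 9 lists. Each point is a gene, red where methylation was gained and blue where it was lost in the test, and the line is the median of the list. Germline and meiosis genes have the highest median among lists with over 3 tested genes, 15.0 points.

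ICR methylation was examined at 20 ICRs listed by the study, of which 19 had at least 2 CpGs with 10 reads in all 4 libraries (Rasgrf1 did not). Each ICR is normally methylated on 1 allele, so that a level near the middle of the scale is the usual state. The mean over the 19 was 63.7% and 65.6% in the EB libraries and 61.5% and 59.8% in the mESC libraries, a rise of 3.997 points with the smallest exact permutation p that 2 against 2 can give, 0.333. These levels took all CpGs measured in each library, which were not the same CpGs in all of them. Over the CpGs common to the 4 libraries the rise was 2.24 points. By the levels over all CpGs of each library, the changes of single ICRs had a median of 1.39 points and an SD of 11.02 points. Meg3 had the largest change, a rise of 35.6 points. By these levels 11 ICRs were higher and 8 lower in EBs, and 10 moved by less than 5 points. The summed reads of the common CpGs gave the other sign at Snrpn, H19, Commd1 and Inpp5f. In shCtrl the mean rose by 5.74 points. The difference of -1.75 points had an exact permutation p = 0.389.

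By the quasi-binomial test over the 19 ICRs, Meg3 gained and Impact lost methylation (5.26% of the ICRs each). The Meg3 ICR, the control element of the Dlk1-Meg3 cluster on chromosome 12 (chr12:110762703-110773093), is methylated on the paternal allele. Only 8 or 9 CpGs of this interval were measured in each of the 4 libraries, with 298 to 448 reads. The ICR was at 77.3% and 76.0% in EBs and at 40.3% and 41.9% in mESCs, a rise of 35.6 points, with a Benjamini-Hochberg adjusted p of 4.30e-05 in the quasi-binomial model of all ICRs. In shCtrl it rose from 39.8% and 46.8% to 67.0% and 76.4%, and the contrasts did not pass the test of a difference (adjusted p = 0.939 in the same kind of model). A stretch of 80 bases with 5 measured CpGs in capitals is shown as the ICR sequence that gained, at chr12:110764878-110764957 (mm9, + strand).
Meg3 ICR: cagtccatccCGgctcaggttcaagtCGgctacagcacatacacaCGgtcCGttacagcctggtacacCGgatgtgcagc
These CpGs are 5 of the 8 common to the 4 libraries in this ICR, so that they are most of the same measurement. They averaged 90.5% and 85.3% in EBs and 44.8% and 44.1% in mESCs, and the lowest CpG in EBs (81.7%) was above the highest in mESCs (52.1%).

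No other ICR passed the test. Igf2r was at 62.7% and 65.4% in EBs and 52.9% and 49.6% in mESCs, so that the groups did not overlap, a rise of 12.8 points whose adjusted p was 0.136 in the quasi-binomial model. In shCtrl Igf2r changed by -0.398 points, and the difference of 12.9 points over the common CpGs did not pass the test either (adjusted p = 0.544, quasi-binomial model). Gpr1 was at 73.7% and 76.2% in EBs and 56.3% and 70.7% in mESCs, 11.4 points apart (adjusted p = 0.160). Gnas was at 52.0% and 60.7% against 50.8% and 54.7%, and passed the test without replicate 1 of EB shβcat #1, where it rose by 7.75 points. Grb10 was at 54.4% and 56.3% against 58.0% and 49.95%. Peg3 was at 54.3% and 33.6% in mESCs and 49.7% and 55.9% in EBs, so that its groups overlapped, as did those of Inpp5f (54.0% and 37.3% in EBs, 50.5% and 45.0% in mESCs), Mest, H13 and Peg10. Snrpn was at 40.5% and 49.0% against 37.7% and 30.5%, Kcnq1ot1 at 45.2% and 40.1% against 46.2% and 48.4%, and Commd1 at 48.2% and 51.5% against 51.0% and 48.0%. Over the common CpGs, the sign of the change turned when 1 library was left out at H13, Peg10, Mest, Peg3, Snrpn, Inpp5f, H19, Grb10 and Commd1. Nnat, Herc3, Plagl1 and Trappc9 were above 86% in all 4 libraries, which is not the level of 1 methylated allele. H19 was at 89.5% and 95.5% in EBs and 73.1% and 78.9% in mESCs, but only 2 CpGs were common to the libraries, and over those the change was -2.84 points.

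The Impact ICR was the only one that lost methylation and the only one that differed from shCtrl. It was at 37.2% and 41.7% in EB and 53.0% and 59.6% in mESC shβcat #1, a change of -16.9 points with an adjusted p of 0.00628 in the quasi-binomial model. In shCtrl it went the other way, from 36.9% and 47.3% in mESCs to 47.7% and 59.5% in EBs. Over the common CpGs the 2 contrasts differed by -28.2 points ± 6.38 (SE, adjusted p = 6.20e-04 in the model of all ICRs). Both calls rested on few libraries. The loss was not called without replicate 1 of EB shβcat #1 (adjusted p = 0.115), without replicate 2 of mESC shβcat #1 (0.103) or with overdispersion moderated per ICR by limma (0.0833), and the difference was not called without replicate 2 of EB shCtrl (adjusted p = 0.156, quasi-binomial model). The direction was negative under each of these.

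**Figure D5:**
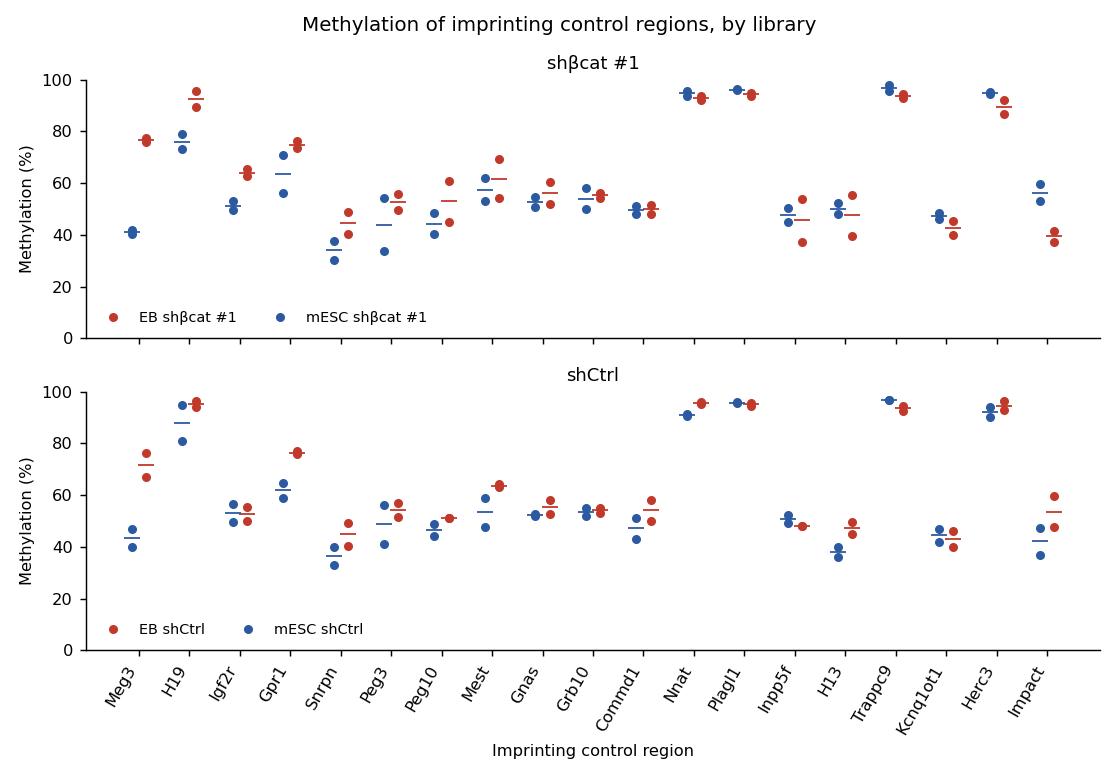
Methylation of the 19 ICRs (percent) in each library, with shβcat #1 and shCtrl in separate panels. Points are single libraries of EBs and mESCs. Meg3 lies higher in EBs in both panels, at 77.3% and 76.0% against 40.3% and 41.9% in shβcat #1, and Impact lies lower in EBs in shβcat #1 and higher in shCtrl.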

How the data were processed

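RRBS libraries had been made from 100 to 200 ng of genomic DNA with NuGEN Ovation Methyl-Seq kits. According to the submitters' processing notes and the study's methods, reads were processed with CASAVA 1.8.2 and Trim Galore 0.2.8 and aligned with Bismark 0.7.9 to mm9; the handling of PCR duplicates is not given in the sources used here. The authors deposited, for each cytosine in CpG context with at least 10 reads, the read count (coverage) after methylation calling with no normalization. They also deposited the percentage of methylated reads for the same cytosine, again without normalization, and methylated reads were recovered from both columns.

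Strands were summed per CpG, and CpGs with 10 or more reads in every compared library were kept, from 22 to 35 reads in the median CpG of the 8 libraries. The reads of 1 fragment that spans several CpGs count at each of them. The SEs given rest on read counts scaled by the overdispersion between replicate libraries, and cover no more than the spread between these libraries. Genes came from GENCODE M1 (NCBIM37, the build mm9), and a CpG's context was read from the mm9 sequence. CpGs were tested with a binomial model (overdispersion 1.23, chi-square test of the deviance), promoters with a quasi-binomial F test with the overdispersion moderated by squeezeVar of limma 3.58.1, and ICRs with a quasi-binomial F test with 1 overdispersion (5.96) for all. Differences from shCtrl were tested with a Wald test of the difference of the 2 changes, with the overdispersion of the same model, and p-values were Benjamini-Hochberg adjusted over all features of a test. The tests were tried on simulated data. Analysis used Python 3.11.15, scipy 1.17.1 and R 4.3.3.

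Named in the text were every ICR with a result to describe, the 10 regions with the most changed CpGs, the 10 largest called promoter changes in each direction with libraries that did not overlap, at most 6 called members of each gene list, the 10 promoters in each direction with the largest called difference from shCtrl, and Pou5f1, Nanog, Zfp42, Ctnnb1, Axin2 and the markers of germ layers. The contrasts, gene lists and named genes were chosen with earlier results of these data known. ICR coordinates were those of the study. The 8 libraries of other cells were not used. One promoter that the rule would name is not reported here. Alternatives are given at the end.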

Additional observations from a re-analysis of the deposited data

Results flagged for a closer look

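The change on differentiation differed between shβcat #1 and shCtrl, in the test of the difference, at 19 named promoters. Higher in shβcat #1 were Nsg2 (23.4 points), Agbl2 (21.3), Trh (20.5), Prrt3 (20.1), Ednra (19.2), Nkx1-2 (18.6), Cwh43 (18.1), Anxa3 (17.6), Vax1 (16.9), Pnldc1 (16.2) and Sfrp5 (14.9). Lower were Vmn2r69 (-34.3 points), Lrrn3 (-25.7), AA986860 (-22.6), AI428936 (-20.4), Plce1 (-19.3), Igbp1b (-17.5), Gm14139 (-16.9) and Sh3rf2 (-14.0). At Plce1 the mESC libraries of the hairpins did not overlap, at 93.0% and 93.4% in shβcat #1 and 68.3% and 71.8% in shCtrl. The Impact ICR differed by -28.2 points in the same kind of test.

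At isolated CpGs with 0 to 2 neighbours both EB libraries lay below both mESC libraries in shβcat #1 and above them in shCtrl, a difference of -6.99 points. The same opposite directions were seen over the highly methylated CpGs of chromosome Y, with a difference of -9.13 points. In both cases the exact permutation p of 0.0556 is the smallest the design allows, and it was 0.111 after adjustment over 30 classes.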

How the results depend on the processing

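Of the values that answer a comparison, 140 were labelled as the same in an alternative and 52 as moved. Counts were labelled the same within a set ratio, and means of CpG classes when they moved by no more than their SD. The mean change, the ICR mean change and their differences from shCtrl were labelled the same at any size if they kept their sign. The ICR mean rise of 3.997 points, for example, was 2.24 points over common CpGs and 2.45 points with 20 reads. The mean rise stayed between 2.53 and 3.05 points with any 1 library left out. No called result turned its direction in any alternative, but 3 values for single promoters (Axin2 with 20 reads and without EB shβcat #1 replicate 1, and Foxa2 without the latter) and 11 for single ICRs, none of them called, changed sign: H13 (4.86 points), Inpp5f (-10.8), Snrpn (3.87 and 5.26), H19 (3.68), Peg10 (-0.44), Mest (-3.84), Peg3 (-1.14), Grb10 (-2.83) and Commd1 (0.90) with 1 library left out, and Nnat (0.59) with 20 reads. With 20 reads per CpG in place of 10, isolated CpGs fell by 1.49 points, 34781 CpGs were gained and 930 lost, 508 regions were gained, 123 CpGs and 51 promoters changed more than in shCtrl, 21 promoters changed less, and 2 ICRs differed. Counting strands separately gave 18.5 points for CpGs at 5 to 20% and 1476 gained and 2 lost regions. A threshold of 20 points gave 7369 lost CpGs and 1496 gained regions, and one of 30 points gave 996 lost CpGs and 636 gained and 0 lost regions. Regions of 5 CpGs numbered 3525 gained and 4 lost, and a change between every pair of libraries left 466 and 0. Promoters with 5 common CpGs gave 43 losses, and overdispersion moderated per ICR gave 0 lost ICRs. With libraries left out in turn, where a lone library was assumed to vary like the other groups, lost CpGs ranged from 2349 to 6800, lost promoters from 24 to 87, gained ICRs from 1 to 2 and lost ICRs from 0 to 1. For the difference from shCtrl the ranges were 256 to 978 CpGs higher and 183 to 760 lower, 3 to 33 promoters higher and 0 to 4 lower, and 0 to 2 ICRs. The causes of these shifts were not tested, except that fewer libraries or CpGs entered. Among results for single promoters, 532 stayed on their side of the test and 162 calls were lost in an alternative, and 2 were gained. For single ICRs these numbers were 122, 4 and 1. Named gains whose call was lost in some alternative were Neurod1, En1, Nefm, Hoxa9, Hoxb1, Pou5f1, Lefty1, Mesp1, Dkk2, Dkk3 and Pcdhb1. Named losses of this kind were Olfr655, Trex2, Cubn, Vmn2r69, Csmd3 and Gm5428. Many of these calls were lost only when a library was left out. The alternatives for the classes of CpGs were chosen after seeing the data.

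The replicate numbers of the labels were also used as a block. Across single CpGs, the deviations of same-numbered EB and mESC libraries of shβcat #1 were not correlated (r = -0.0173). Counting error of reads weighs on single CpGs, and the shCtrl libraries did not enter this value. Whether same-numbered libraries share a batch was therefore not tested. The replicate block gave 50038 gained and 2377 lost CpGs, 1218 and 79 promoters, and 1 and 1 ICRs, and it ended the calls of Dkk2, Hoxb1 and Olfr655 among the named promoters.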
